A study of Mus musculus with 18 samples.

Results

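Macrophages that had been kept with amorphous silica particles were challenged with lipopolysaccharide (LPS), a component of the outer membrane of Gram-negative bacteria, and their gene expression 4 h later is described here. The comparison was made between the 3 arrays titled Silica-LPS and the 3 arrays titled Silica, which are 6 of the 18 arrays in the study. Both groups came from marrow of C57BL/6 mice aged 4 to 6 weeks, and the marrow cells became macrophages in medium conditioned by L929 cells, a fibroblast line that secretes macrophage growth factor. Both then spent 24 h with silica particles of 50 nm at a concentration that the labels give as 25 mg/ml, a unit that could not be checked here. The particles were removed, the cells were washed, and Silica-LPS cells received LPS from Escherichia coli O111:B4 at 10 ng/ml for 4 h while Silica cells received fresh medium alone. The same challenge was given to cells without particles (CON and LPS, 3 arrays each) and to cells kept for 24 h with iron oxide particles of 33 nm (SPIO and SPIO-LPS, 3 arrays each), and these 4 groups were used to test whether the response after silica differed. The label of the CON group does not give its times. For the iron oxide particles the labels give the same concentration of 25 mg/ml, with the same limit on the unit. All groups share the C57BL/6 background and the age of 4 to 6 weeks, and the labels name no mutation or transgene. Arrays within 1 group are biological replicates per the labels, which name no animals, and a p-value here therefore speaks of the spread between cultures, part of which may be technical.

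LPS is handed by the soluble protein LBP and the membrane protein CD14 to the receptor TLR4 with its partner MD-2. Inside the cell the adaptors MyD88 and TRIF carry the signal on. The first frees NF-kB from its inhibitors and turns on cytokine and chemokine genes, and the second activates the kinases TBK1 and IKKepsilon, which lead to interferon beta and, through its receptor, to a later wave of antiviral genes. The same programme induces its own brakes and lowers many genes of the resting macrophage. Silica nanoparticles are taken up by macrophages and come to lie largely in endosomes and lysosomes.

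Signals are RMA values on a log2 scale, on which a difference of 1 is a factor of 2. RMA corrects background, makes the distribution of probe signals equal between arrays and then combines the probes of a set. The medians over probe sets still differed, at 6.35 to 6.43 in Silica arrays and 6.23 to 6.25 in Silica-LPS arrays. The part of this shift in the results was not tested. A total of 12393 genes was tested, each by its brightest probe set. The 6 arrays correlated across probe sets at 0.997 to 0.999 within a group and at 0.954 to 0.957 between the groups. Defining macrophage markers were bright: Csf1r, the receptor for macrophage growth factor, had signals of 13.94, 13.94 and 13.98 in Silica arrays, and Adgre1, a surface antigen used to identify mouse macrophages, had 12.12, 12.16 and 12.16. The lowest average of the 16 macrophage markers in an array was 12.07 in Silica and 11.99 in Silica-LPS, with 11 called lower (8 under cyclic loess) and 4 higher (median -0.23). Other cell types were looked for through lists of their markers. The counts of called macrophage and other markers stand beside 21.5% of all genes tested called higher and 35.8% called lower. The 15 fibroblast and stromal markers averaged 9.40 to 9.41 in Silica arrays and 9.28 to 9.34 in Silica-LPS arrays, with 4 called higher and 9 lower, and Col1a2, a collagen chain that macrophages are not known to make in quantity, had signals of 13.68, 13.60 and 13.62 before LPS. The 13 neutrophil markers averaged 8.32 to 8.40 and 8.41 to 8.45, with 3 called higher and 3 lower. B cell markers averaged 5.34 to 5.47 and 4.98 to 5.09, with 3 of 7 lower, among them the immunoglobulin heavy chain gene Ighm (-1.65 ± 0.092, with 2 of its 11 probe sets called). Osteoclast markers averaged 6.10 to 6.25 and 6.70 to 6.73, with 3 of 7 called higher and 2 lower (none lower under cyclic loess), from Acp5, which activated macrophages also express, at 2.43 ± 0.069 to Nfatc1 at -0.47 ± 0.093. Mast cell markers averaged 3.83 to 3.98 and 4.32 to 4.37, where Hdc (2.50 ± 0.10) was the 1 called member of 8. The dendritic cell list had 1 of 8 members called higher and 1 lower (3 higher under cyclic loess), and no member of the T and NK cell list (7 genes) or the erythroid list (6 genes) was called. The part of these cells in the results was not tested, and in bulk RNA fewer cells of a type and less RNA per cell cannot be told apart. Measures of RNA quality differed between the groups. The 3' minus 5' signal of the control probe sets for Gapdh was 0.56 ± 0.02 (SD, n = 3) in Silica and 0.43 ± 0.046 in Silica-LPS, and that for beta-actin 0.62 ± 0.018 and 0.44 ± 0.026, and their part was not tested either.

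LPS changed 7104 of the 12393 genes (57.3%) in silica-pretreated macrophages at an adjusted p below 0.05, in the test of limma with Benjamini-Hochberg adjustment that is used throughout, with 3 arrays per group. Of these, 2662 rose (21.5% of all genes) and 4442 fell (35.8%). The balance between both directions depends on how the arrays are brought to a common scale, since cyclic loess between arrays gave 3559 rises and 3390 falls, or 51.2% of calls upward against 37.5% here, while the median of all genes moved from -0.02 to 0.02. At least 2-fold, 679 genes rose (5.48%) and 737 fell (5.95%), against 815 and 522 under cyclic loess. Larger changes were mostly rises, with 286 rises and 112 falls at 4-fold, 134 and 24 at 8-fold, 72 and 6 at 16-fold, 45 and 1 at 32-fold, and 23 and 0 at 64-fold. The 95% interval of a typical difference was 0.17 wide on each side.

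The 15 largest rises included cytokines, chemokines and interferon-induced genes. Il6, the cytokine that drives the acute phase response, had signals of 3.56, 3.70 and 3.52 in the Silica arrays and 12.04, 12.02 and 12.15 in the Silica-LPS arrays. It thus lay near the lower end of the scale before LPS and rose by 8.48 ± 0.12 (standard error of the fit), or 356-fold (adjusted p = 7.01e-18). Cxcl10, a chemokine for T cells, went from 6.25, 5.70 and 5.93 to 14.29, 14.23 and 14.30. The rise of 8.31 ± 0.15 was the second in size, and the Silica-LPS signals approached the upper end of the scale, where arrays understate change. Mx1, an antiviral GTPase, had 4.69, 5.34 and 4.83 in Silica arrays and 12.59, 12.79 and 12.76 in Silica-LPS arrays (7.76 ± 0.18). The neutrophil chemokine Cxcl1 followed with 7.58 ± 0.12, then Ifit1, which binds viral RNA, with 7.32 ± 0.12, and the chemokines Ccl5 with 7.27 ± 0.058 and Ccl4 with 7.12 ± 0.086. Il1a (6.97 ± 0.16), Cmpk2 (6.94 ± 0.18), Acod1 (6.90 ± 0.098), Il1b (6.76 ± 0.082), Cxcl11 (6.74 ± 0.13), Gbp6 (6.70 ± 0.16), Ccl12 (6.68 ± 0.11) and Usp18 (6.62 ± 0.097) completed the set. None of these genes had overlapping arrays between the groups, which was a condition for naming them. Over all genes, the arrays of both groups did not overlap for 25.3% with Silica-LPS higher and for 38.1% with Silica-LPS lower.

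**Figure D1:**
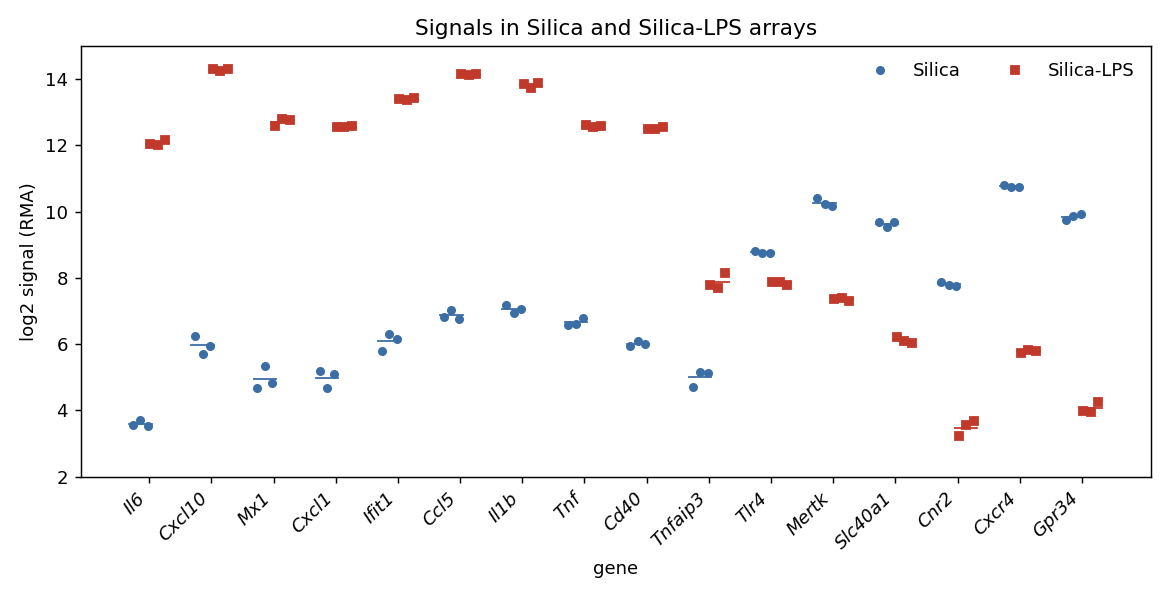
Log2 RMA signals of 16 genes (horizontal axis) in the 3 Silica arrays (blue circles) and the 3 Silica-LPS arrays (red squares), with short lines at the group means. The 10 genes on the left, from Il6 to Tnfaip3, were higher in all 3 Silica-LPS arrays than in any Silica array, and the 6 on the right, from Tlr4 to Gpr34, were lower.

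The 15 largest falls were in genes of several kinds. Gpr34, a receptor for lysophosphatidylserine, had signals of 9.74, 9.88 and 9.93 without and 3.98, 3.94 and 4.26 with LPS. It fell by 5.79 or 55.2-fold (adjusted p = 4.66e-15), the largest fall of all. Cxcr4, which holds leukocytes in the marrow, went from 10.81, 10.73 and 10.74 to 5.74, 5.82 and 5.80 and fell by 4.98. Cnr2, the cannabinoid receptor of immune cells, went from 7.88, 7.79 and 7.75 to 3.21, 3.55 and 3.67 and fell by 4.33. Sesn1, a sestrin that restrains mTORC1, fell by 4.20, and Rgs2, which shortens signals of Gq-coupled receptors, by 4.14. Rassf3 fell by 4.02. The other falls were those of Cerk, the ceramide kinase (-3.70), the lysosomal transporter Slc46a3 (-3.68), Otulinl (-3.66), the clock-output factor Dbp (-3.64), Cd28 (-3.54), the iron exporter Slc40a1 (-3.52), the glucocorticoid-induced Tsc22d3 (-3.49), the prostaglandin-degrading enzyme Hpgd (-3.46) and the phosphatidate phosphatase Lpin1 (-3.40).

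Counts over lists of genes with a known role are read below against the 21.5% of all genes that rose and the 35.8% that fell, with a median of -0.02 over all genes. Of the 12 genes for the LPS receptor complex and its adaptors, 6 rose and 3 fell (median 0.44). Tlr4 itself had signals of 8.82, 8.75 and 8.76 in Silica arrays and 7.88, 7.87 and 7.79 in Silica-LPS arrays and fell by 0.93. Cd14, which was bright already, went from 11.96, 12.01 and 12.05 to 13.66, 13.71 and 13.70 and rose by 1.68 ± 0.04. The adaptor Myd88 (2.60 ± 0.043) and the kinases of the interferon branch, Ikbke (2.62 ± 0.051) and Tbk1 (1.18 ± 0.062), rose as well, whereas the kinase Irak1 fell by 0.65. Ly96, which encodes MD-2, Traf6 and Lbp did not pass the test, at 0.12, 0.13 and 0.17. Among 15 other Toll-like and pattern receptors, 12 rose and 1 fell (median 1.94). The sensors of viral RNA Ifih1 (4.49 ± 0.046) and Dhx58 (3.55 ± 0.064), the scavenger receptor Marco (4.07 ± 0.075), which binds silica among other particles, and the mycobacterial lectin receptor Clec4e (3.27 ± 0.072) rose most. The beta-glucan receptor Clec7a fell by 0.48, and Tlr9 (0.13) and Tlr5 (-0.18) did not pass.

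All 6 measured genes of NF-kB subunits and of the related proteins Bcl3 and Nfkbiz rose (median 2.39), with Nfkbiz at 4.11 ± 0.095, Rel at 3.04 ± 0.068, Nfkb2 at 2.62 ± 0.065 and Bcl3 at 2.16 ± 0.055. All 11 inhibitors of NF-kB and Toll signalling rose too, each at least 2-fold (median 2.82). Nfkbia, which encodes IkappaBalpha and is expressed at rest, went from 12.26, 12.29 and 12.23 to 13.62, 13.56 and 13.59 (1.33 ± 0.041). Tnfaip3, the ubiquitin-editing enzyme A20, went from 4.70, 5.17 and 5.14 to 7.79, 7.71 and 8.16 (2.88 ± 0.12). The cytokine signalling inhibitor Socs3 rose most, from 7.16, 7.24 and 7.27 to 13.15, 13.09 and 13.18, or 60.2-fold, followed by the endonuclease Zc3h12a (3.37 ± 0.11) and Socs1 (3.12 ± 0.14).

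Phosphatases of MAP kinases and proteins of mRNA decay were split. Of 9 genes 4 rose and 3 fell, with a median of -0.11 that turned to 0.03 under cyclic loess, 0.01 with the mean of probe sets and 0.45 without the dimmest genes. Both kinds moved both ways. The phosphatases Dusp2 (5.05 ± 0.076) and Dusp16 (3.42 ± 0.053) rose and Dusp6 fell by 1.15. Of the mRNA-destabilising proteins Zfp36 rose by 2.34 ± 0.059, and Zfp36l1 and Zfp36l2 fell by 2.58 and 2.59, while Dusp10 (-0.11) and Dusp14 (-0.32) did not pass. Of 17 factors of the AP-1, ATF, EGR and C/EBP families, 10 rose and 4 fell (median 0.35). Atf3 (2.51 ± 0.052), Batf (2.45 ± 0.11) and Junb (1.94 ± 0.069) rose. Cebpa, a factor of myeloid differentiation, fell by 1.88 and the immediate-early gene Egr1 by 1.57, and the other 3 did not pass.

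Of 19 inflammatory cytokines, 17 rose and none fell (median 2.72), 16 of them at least 2-fold. Besides Il6, the subunit Il12b, shared by IL-12 and IL-23, went from 3.45, 3.58 and 3.70 to 10.01, 10.05 and 10.13 and rose by 6.48 ± 0.14. Tnf went from 6.57, 6.62 and 6.78 to 12.63, 12.56 and 12.59, a rise of 5.93 ± 0.084 or 61.1-fold. Il1b, whose product needs cleavage by an inflammasome, went from 7.16, 6.94 and 7.07 to 13.86, 13.73 and 13.87. The anti-inflammatory Il10 had 3.69, 3.40 and 3.38 without and 8.44, 8.37 and 8.44 with LPS and rose 30.4-fold (4.92 ± 0.13). Ifnb1, the interferon that carries the later wave, had low signals throughout, 4.11, 3.81 and 3.88 without and 5.75, 6.07 and 6.09 with LPS (2.04 ± 0.12). Csf1 and Vegfa did not pass, at 0.10 and -0.04, and a further probe set of Vegfa was called higher where the one used did not pass.

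Of 12 CC chemokines 11 rose, each at least 2-fold, and 1 fell (median 3.05). Ccl5 went from 6.81, 7.02 and 6.76 to 14.14, 14.11 and 14.16, which is the brightest end of the scale. Ccl2, the chief attractant of monocytes, went from 6.85, 6.67 and 6.55 to 11.79, 11.61 and 11.87 and rose by 5.06 ± 0.091, and Ccl3 rose by 6.28 ± 0.073. Ccl6, which resting macrophages make, fell by 0.46. Among 12 CXC chemokines 7 rose and 3 fell (median 1.93). The neutrophil attractants Cxcl1 and Cxcl2 (5.22 ± 0.069) and the interferon-induced Cxcl9 (6.20 ± 0.14), Cxcl10 and Cxcl11 rose, as did Cxcl5 (3.10 ± 0.20) and Cxcl16 (0.76 ± 0.047). Ppbp, which platelets store and whose product also attracts neutrophils, fell by 0.82 and Cxcl14 by 0.47, as did Cxcl12 (-0.45), the ligand of Cxcr4, which is also among the stromal markers. Pf4 (-0.05) and Cxcl13 (0.09) did not pass. Of 9 chemokine receptors 4 rose and 3 fell (median 0.22), with 1 rise and a median of -1.19 without the dimmest genes. Ccrl2, a receptor that presents chemerin without signalling, rose by 4.53 ± 0.057. The receptor for CCL2, Ccr2, fell by 2.09 and the fractalkine receptor Cx3cr1 by 1.19. Ccr1 (-0.08) and Cxcr2 (0.22) did not pass.

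Both lists of interferon-induced genes, which both hold Ifi47, rose in full. All 26 genes of the antiviral interferon list rose at least 2-fold (median 3.98), as did all 9 interferon-inducible GTPases (median 4.42). Ifit1 went from 5.79, 6.30 and 6.14 to 13.39, 13.36 and 13.43. Among the GTPases, which attack the vacuoles of microbes, Iigp1 rose by 6.26 ± 0.24, Gbp2 by 5.42 ± 0.16 and Gbp3 by 5.08 ± 0.12. Genes for interferon signalling itself rose less, 12 of 15 with 2 falls (median 1.17). Irf7, which amplifies interferon production, went from 6.17, 6.48 and 6.57 to 11.21, 11.25 and 11.21, or 28.3-fold. Stat2 (3.36 ± 0.097), Jak2 (3.11 ± 0.056) and Irf1 (2.03 ± 0.048) rose as well. Irf3, which is activated by phosphorylation rather than by synthesis, fell by 0.51 and the interferon gamma receptor chain Ifngr1 by 0.96.

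The promoters of 5 of these genes are shown because the genes belong to the lists that rose together and their windows hold the motifs of the factors named above. Each runs from 250 bases before to 50 bases after the RefSeq gene start on GRCm38.p6, 5' to 3' on the strand of the gene, with matches of the NF-kB consensus or of the core of the interferon-stimulated response element in capitals. They lie at chr5:30012864-30013163 on the plus strand (Il6), chr5:90890995-90891294 on the plus strand (Cxcl1), chr5:92348840-92349139 on the minus strand (Cxcl10), chr19:34640639-34640938 on the plus strand (Ifit1) and chr10:19015361-19015660 on the minus strand (Tnfaip3).
Il6: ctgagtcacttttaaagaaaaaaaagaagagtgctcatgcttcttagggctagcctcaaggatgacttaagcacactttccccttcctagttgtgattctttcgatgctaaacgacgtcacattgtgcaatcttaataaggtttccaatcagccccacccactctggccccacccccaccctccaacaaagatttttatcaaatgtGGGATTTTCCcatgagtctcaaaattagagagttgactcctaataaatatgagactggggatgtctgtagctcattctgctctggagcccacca
Cxcl1: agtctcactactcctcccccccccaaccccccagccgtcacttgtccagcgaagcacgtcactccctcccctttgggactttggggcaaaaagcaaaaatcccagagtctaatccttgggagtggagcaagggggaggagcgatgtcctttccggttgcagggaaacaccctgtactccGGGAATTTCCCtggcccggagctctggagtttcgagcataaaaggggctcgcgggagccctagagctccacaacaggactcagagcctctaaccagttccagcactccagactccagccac
Cxcl10: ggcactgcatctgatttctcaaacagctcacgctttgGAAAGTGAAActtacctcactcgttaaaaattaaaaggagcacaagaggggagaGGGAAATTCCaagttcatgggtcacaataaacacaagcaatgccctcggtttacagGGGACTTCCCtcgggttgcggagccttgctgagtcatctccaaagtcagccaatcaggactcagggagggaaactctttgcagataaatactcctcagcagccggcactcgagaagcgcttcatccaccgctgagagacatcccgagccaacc
Ifit1: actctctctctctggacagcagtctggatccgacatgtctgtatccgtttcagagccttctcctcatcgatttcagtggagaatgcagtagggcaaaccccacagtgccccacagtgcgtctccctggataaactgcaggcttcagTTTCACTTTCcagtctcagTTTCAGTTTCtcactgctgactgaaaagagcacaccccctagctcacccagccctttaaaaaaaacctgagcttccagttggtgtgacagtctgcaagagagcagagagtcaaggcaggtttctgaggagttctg
Tnfaip3: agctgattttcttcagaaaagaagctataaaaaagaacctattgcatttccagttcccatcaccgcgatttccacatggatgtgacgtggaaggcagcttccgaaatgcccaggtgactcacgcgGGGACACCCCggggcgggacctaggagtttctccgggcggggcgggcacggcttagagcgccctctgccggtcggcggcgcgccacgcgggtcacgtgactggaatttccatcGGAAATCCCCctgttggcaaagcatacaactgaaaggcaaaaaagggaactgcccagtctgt
The NF-kB match of Il6 begins 44 bases before the start. That of Cxcl1 reads in both directions from overlapping positions 71 and 70 bases before it. Cxcl10 has NF-kB matches at 159 and 103 bases before the start and an interferon element at 213. Ifit1 has its interferon elements, on the other strand, at 104 and 85 bases before the start, and Tnfaip3 its NF-kB matches at 125 and 12.

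Such windows were found for 9887 of the 12393 genes. The NF-kB consensus was searched on both strands, and 6.18% of all windows held it, against 10.7% of 562 windows of genes that rose at least 2-fold, 15.1% of 53 that rose at least 16-fold and 5.82% of 601 that fell at least 2-fold. The interferon element was searched as GAAANNGAAA on both strands, and the same shares were 3.84%, 11.2%, 20.8% and 2.5%. By list, the NF-kB consensus lay in the windows of 5 of 11 inhibitors of NF-kB and Toll signalling, 3 of 4 NF-kB subunits, 5 of 14 inflammatory cytokines, 3 of 9 CXC chemokines, 1 of 7 CC chemokines, 2 of 19 antiviral genes, none of 7 interferon-inducible GTPases and 3 of 24 lysosomal genes, most of which fell. The interferon element lay in the windows of 10 of 19 antiviral genes, 6 of 7 interferon-inducible GTPases, 2 of 9 CXC chemokines, 1 of 14 inflammatory cytokines, 1 of 11 inhibitors, 2 of 24 lysosomal genes and none of the CC chemokines or NF-kB subunits. These matches describe letters in the window and are not sites of binding.

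Of 11 genes of the MHC class I pathway and the immunoproteasome all rose (median 1.29). The peptide transporters Tap1 (3.81 ± 0.055) and Tap2 (2.22 ± 0.06) and the immunoproteasome subunits Psmb9 (2.30 ± 0.051) and Psmb10 (2.02 ± 0.042) rose most. Of 8 genes for MHC class II presentation 4 rose and 3 fell, none of them 2-fold (median 0.10). The chains H2-Ab1 (0.96 ± 0.089) and H2-Eb1 (0.60 ± 0.082) and the invariant chain Cd74 (0.72 ± 0.066) rose, the peptide-loading chain H2-DMa fell by 0.56 and the protease Lgmn by 0.68, and the class II regulator Ciita did not pass (-0.17). Of 10 costimulatory and checkpoint genes 8 rose and none fell (median 1.68). Cd40 went from 5.93, 6.08 and 5.99 to 12.51, 12.50 and 12.55, a rise of 6.52 ± 0.064 or 91.6-fold. Cd274, which encodes PD-L1, rose by 4.20 ± 0.062 and Icosl by 2.87 ± 0.13. Cd80 (0.08) and Pdcd1lg2 (0.22), which encodes PD-L2, did not pass.

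Effector genes mostly rose as well, apart from the list for prostaglandins and leukotrienes. Of 12 genes for nitric oxide, arginine and itaconate, 11 rose and 1 fell (median 2.00). Acod1, the enzyme that makes itaconate, had signals of 7.34, 7.09 and 6.96 without and 14.03, 14.04 and 14.03 with LPS. Nos2, the inducible nitric oxide synthase, rose by 1.64 ± 0.11 from 4.64, 4.70 and 4.58 to 6.35, 6.36 and 6.12, and Arg1, which competes for the same arginine, by 1.19 ± 0.19 from a mean of 6.99 ± 0.16 (SD, n = 3) to one of 8.17 ± 0.15. Gch1, whose product supplies the cofactor of Nos2, rose by 3.97 ± 0.05 and the arginine transporter Slc7a2 by 4.04 ± 0.078. Asl fell by 0.36. Among 10 inflammasome genes and caspases 7 rose and 2 fell (median 1.42). Nlrp3, the sensor that responds to silica crystals among other agents, rose by 3.51 ± 0.11, Mefv by 4.46 ± 0.078, Casp4 by 3.76 ± 0.051 and Casp1 by 2.28 ± 0.051. The adaptor Pycard fell by 0.27 and Txnip by 1.68. Of 13 genes for prostaglandins and leukotrienes 5 rose and 7 fell (median -0.77). The enzymes of prostaglandin E2 synthesis, Ptges (4.79 ± 0.099) and Ptgs2 (2.36 ± 0.084), rose while Hpgd, which degrades it, fell by 3.46. Pla2g7 did not pass (0.07).

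Of 13 acute phase and secreted defence genes 9 rose and 4 fell (median 1.93), with 2 falls under cyclic loess. Complement factor B, Cfb, rose by 5.33 ± 0.15 and Saa3 by 4.22 ± 0.13, whereas the C1q chains C1qa and C1qc, made by resting macrophages, fell by 0.66 and 0.44. Of 23 genes for adhesion and matrix turnover 14 rose and 6 fell (median 0.67). The collagenase Mmp13 rose by 5.30 ± 0.084, coagulation factor F10 by 3.71 ± 0.062, and the adhesion molecules Icam1 and Vcam1 by 3.52 ± 0.049 and 3.04 ± 0.043, while the metalloproteinase inhibitor Timp2 fell by 0.73 and Thbs1 by 0.77.

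**Figure D2:**
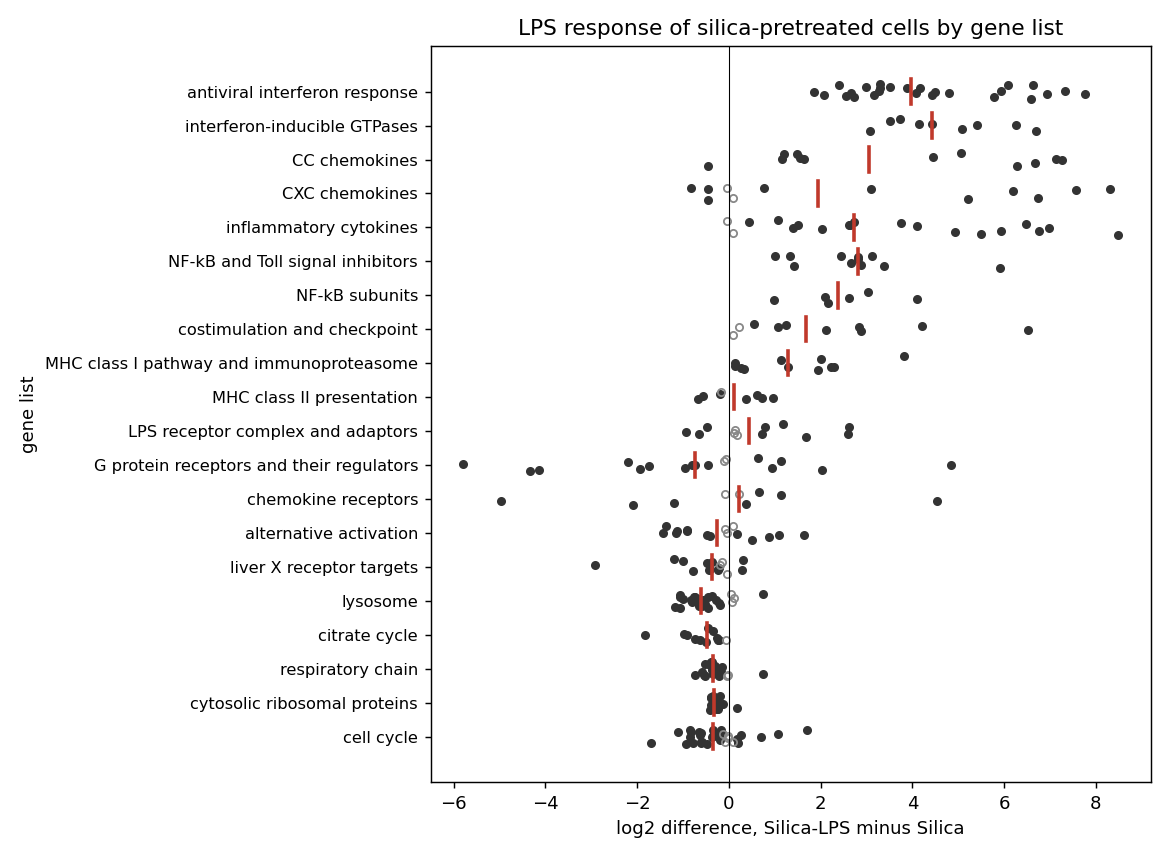
Log2 differences, Silica-LPS minus Silica (horizontal axis), of the members of 20 gene lists, 1 row per list. Filled points passed the test at an adjusted p below 0.05, open points did not, and red bars mark the medians, which run from 4.42 for the interferon-inducible GTPases to -0.74 for the G protein receptors and their regulators.

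Genes of glycolysis and the hypoxia response mostly rose, 13 of 17 with 4 falls (median 0.55). Pfkfb3, which makes the activator of phosphofructokinase, rose by 3.57 ± 0.048, the glucose transporter Slc2a1 by 1.53 ± 0.045, Pfkp by 1.31 ± 0.046 and the hexokinase Hk2 by 1.12 ± 0.069. The falls were those of the glycolytic enzymes Pgam1 (-0.40), Pkm (-0.23), Tpi1 (-0.21) and Aldoa (-0.16), and under cyclic loess 1 member of the list was called lower. Of 12 genes in the citrate cycle list, which also holds cytosolic enzymes, 11 fell and none rose (median -0.49), with 8 falls under cyclic loess. Idh1, the cytosolic isocitrate dehydrogenase, had signals of 12.40, 12.40 and 12.43 without and 10.59, 10.55 and 10.61 with LPS and fell by 1.82, Fh1 by 0.98, the cytosolic malate dehydrogenase Mdh1 by 0.92 and the succinate dehydrogenase subunit Sdhb by 0.75. Citrate synthase, Cs, did not pass (-0.07), although a further probe set of the gene was called higher. Of 24 respiratory chain subunits 21 fell and 1, the electron carrier Cycs (0.75 ± 0.11), rose (median -0.34), with 17 falls and 2 rises under cyclic loess. All 19 cytosolic ribosomal proteins were called, 18 lower and Rps6 higher (0.18 ± 0.046), by small amounts (median -0.33). Rpl10a fell by 0.41 and Rps3 by 0.39, and 14 were lower under cyclic loess. In these 3 lists Idh1 was the 1 member that changed at least 2-fold. The part of the scaling and of the RNA measures given above was not tested further.

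Of 29 lysosomal genes 25 fell and 1 rose (median -0.60), with 23 falls and 4 rises under cyclic loess. Npc1, which exports cholesterol from the lysosome, had signals of 10.73, 10.60 and 10.48 without and 9.44, 9.44 and 9.39 with LPS and fell by 1.18. The proton pump subunit Atp6v0a1 fell by 1.07, and the hydrolases Gusb and Naglu fell by 1.06 and 1.06. Tcirg1, another pump subunit, rose by 0.75 ± 0.045, and Npc2 (0.04), Ctsz (0.07) and Atp6v1h (0.10) did not pass. The E-box core TCACGTGA, which reads alike on both strands and is bound by TFEB among other factors, lay in 5 of 24 lysosomal promoter windows (20.8%) against 1.76% of all windows, 1.42% of those that rose at least 2-fold and 2.0% of those that fell at least 2-fold.

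Cholesterol synthesis went the other way, with 11 of 16 genes higher and 4 lower (median 0.51), or 1 lower under cyclic loess. The regulator Srebf2 (1.33 ± 0.053), Idi1 (1.32 ± 0.06) and Cyp51 (1.07 ± 0.049) rose, whereas Dhcr7, the last enzyme of the pathway, fell by 1.41 and Mvd by 0.44. Of 15 targets of the liver X receptor 10 fell and 2 rose (median -0.37), with 6 and 3 under cyclic loess. Mertk, a receptor for dying cells, went from 10.40, 10.22 and 10.17 to 7.35, 7.38 and 7.30 and fell by 2.92, Scd2 by 1.20 and Mylip by 0.99. Nr1h3, the receptor itself, rose by 0.31 ± 0.09 and the cholesterol exporter Abca1 by 0.28 ± 0.059.

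Genes of alternative activation were split, 5 of 16 higher and 8 lower (median -0.25). Gas6, a bridge to dying cells (-1.44), Pparg (-1.37) and the haemoglobin scavenger receptor Cd163 (-1.15) fell, the chemokine Ccl24 rose by 1.64 ± 0.099 and the receptor chain Il4ra by 1.09 ± 0.048. The other 3 did not pass. Of 14 genes for clearance of dying cells and Fc receptors 8 rose and 5 fell (median 0.18). The Fc receptors Fcgr4 (2.17 ± 0.084) and Fcgr1 (1.97 ± 0.06) rose while Mertk and its ligand Gas6 fell. Of 17 G protein receptors and their regulators 10 fell and 5 rose (median -0.74). Gpr84, a receptor for medium-chain fatty acids, rose by 4.83 ± 0.086 and P2ry14 by 2.03 ± 0.10, against the falls of Gpr34, Cnr2 and Rgs2.

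Iron handling was split, 6 of 16 genes higher and 7 lower, with a median of -0.06 that turned to 0.03 under cyclic loess. Slc40a1, the only known iron exporter, went from 9.68, 9.53 and 9.70 to 6.23, 6.09 and 6.02 and fell by 3.52, while the ferroxidase Cp rose by 4.99 ± 0.069, the iron importer Slc11a2 by 2.21 ± 0.057 and the siderophore-binding Lcn2 by 1.98 ± 0.08. The NRF2 list was split too, 7 of 17 higher and 6 lower, and its median of -0.07 turned to 0.10 under cyclic loess. The cystine importer Slc7a11 went from 5.89, 5.43 and 5.73 to 10.23, 10.17 and 10.27, or 23.2-fold, and Gsr (1.34 ± 0.048) and Txnrd1 (1.08 ± 0.058) rose. Catalase, Cat, fell by 0.86 and the glutathione synthesis enzyme Gclc by 0.67, and the other 4 did not pass. Of 6 genes for metallothioneins and zinc 5 rose and none fell (median 0.88), with Mt2 at 2.91 ± 0.057 and the zinc importer Slc39a14 at 2.44 ± 0.077, and Mtf1 did not pass (0.13).

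Of 33 cell cycle genes 22 fell and 6 rose (median -0.34), with 14 falls and 8 rises under cyclic loess. The inhibitors Cdkn2c and Cdkn1b fell by 1.69 and 1.12, while Cdk6 (1.70 ± 0.14) and Mki67 (1.07 ± 0.09) rose, and the other 5 did not pass. The p53 targets and sestrins were split, with 7 of 17 higher and 7 lower (median 0.04). The death receptor Fas (2.93 ± 0.14) and Gadd45b (2.73 ± 0.053) rose, whereas Sesn1 had signals of 11.05, 11.01 and 11.03 without and 7.03, 6.82 and 6.64 with LPS and Trp53inp1 fell by 2.91. Plk2 (0.04) and Tnfrsf10b (0.19) were among the 3 that did not pass. Of 24 genes of the ATF4 and unfolded protein responses 13 fell and 4 rose (median -0.22), with 9 and 6 under cyclic loess, among them the chaperone Dnajb9 (-1.07) downward and Atf4 (0.44 ± 0.053) and Mthfd2 (0.53 ± 0.066) upward. Of 11 heat shock proteins 6 fell and 3 rose (median -0.14), with 5 and 4 under cyclic loess. The inducible Hspa1a (2.45 ± 0.12) and Hspa1b (2.07 ± 0.13), whose sequences are nearly identical so that their probes may share signal, rose, Hsph1 fell by 0.72, and the other 2 did not pass.

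Of 16 genes of the circadian clock and its output 7 fell and 4 rose (median -0.09). The rises numbered 2 without Silica 2, 2 without Silica-LPS 3 and 6 under cyclic loess. The median was -0.01 without Silica-LPS 2 and -0.42 without the dimmest genes. Dbp went from 9.30, 9.16 and 9.23 to 5.61, 5.70 and 5.47, Tef fell by 1.91 and Per2 by 1.28. Per3 fell by 2.10, with 1 of its 3 probe sets called the other way. The repressor Cry2 rose by 0.71 ± 0.068 and Nfil3 by 0.42 ± 0.054, and the other 5 did not pass. Of 12 genes linked to glucocorticoids or FOXO factors 7 fell and 5 rose (median -0.59). Tsc22d3 had signals of 9.88, 9.87 and 10.03 without and 6.39, 6.57 and 6.34 with LPS and Foxo3 fell by 1.99, while Bcl6 (1.94 ± 0.06) and the glucocorticoid receptor Nr3c1 (1.23 ± 0.052) rose.

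Whether silica altered this answer was asked by the difference between the response after silica and the response without a particle, LPS minus CON. That response had 7216 of 12393 genes called (58.2%), 22.2% higher and 36.1% lower, and rises and falls of 2-fold numbered 651 and 762. Both responses ran side by side over the whole range. Across genes they correlated at r = 0.985 with a slope of 0.993, as a description over genes that share arrays and are not independent replicates. All 1413 genes that moved at least 2-fold without particle were called in the same direction after silica, and 1291 were 2-fold in both, or 91.2% of the list after silica and 91.4% of the list without particle. The difference itself passed the test for 2 genes (0.0161%), 1 with a higher (0.00807%) and 1 with a lower response after silica (0.00807%). With a variance trend and robust prior these counts were 27 and 13, and with the replicate block 0 and 0. The difference had an unadjusted p below 0.05 for 843 (6.8%). A test that passes for few genes does not show equality, so the 95% intervals were read. They lay within 1 on either side of 0 for 12368 genes (99.8%) and for 1401 of the 1416 genes (98.9%) that moved at least 2-fold after silica, and within 0.5 for 1110 of those (78.4%).

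Plpp3, a membrane phosphatase that degrades lysophosphatidic acid, had signals of 7.03, 6.92 and 6.88 in Silica arrays and 10.24, 10.18 and 10.20 in Silica-LPS arrays. Its mean was 7.29 in CON and 10.12 in LPS. The response after silica was 3.26 ± 0.046 and that without particle 2.83, a difference of 0.44 ± 0.064 (adjusted p = 0.0452 by limma). The gene started lower after silica (-0.35, adjusted p = 0.000552), and Silica-LPS minus LPS was 0.09 (adjusted p = 0.361). Ccnd2, the D2 cyclin that lets cells enter the cycle, had signals of 9.89, 9.71 and 9.77 and 10.47, 10.51 and 10.49, with means of 9.67 in CON and 10.92 in LPS. It rose by 0.70 ± 0.058 after silica and by 1.25 without particle, a difference of -0.55 ± 0.082 (adjusted p = 0.0452). Here Silica minus CON was 0.12 (adjusted p = 0.293) and Silica-LPS minus LPS was -0.43 (adjusted p = 0.00111). Both adjusted p-values lay just under the threshold, and each call was kept under 5 of 19 other settings and lost under the rest. Leaving out any single array of the 4 groups ended the call of Ccnd2, and leaving out any but Silica 1 ended that of Plpp3, with adjusted p up to 0.212 for both genes.

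For the leading LPS genes the difference from the response without particle did not pass. The 95% intervals given here are for single genes, without adjustment for the number of genes tested, and some exclude 0. For Cxcl10 and Mx1 the differences were 0.65 ± 0.22 and 0.65 ± 0.25, on responses of 8.31 and 7.76. Their 95% intervals excluded 0 and reached beyond 1, the wider limit used above. The difference of Il6 was 0.22 ± 0.16 (95% interval -0.13 to 0.57), that of Tnf 0.30 ± 0.12 (0.04 to 0.55) and that of Il1b 0.13 ± 0.12 (-0.12 to 0.38). Il10 rose by 4.92 after silica and 5.45 without (difference -0.53 ± 0.19, 95% interval -0.92 to -0.13, adjusted p = 0.556). Irf7 rose by 4.82 and 4.26 (0.56 ± 0.11, interval 0.32 to 0.79, adjusted p = 0.232) and Tnfaip3 by 2.88 and 2.31 (0.57 ± 0.17, interval 0.21 to 0.93). Cd40, Nfkbia and Socs3 differed by 0.22, -0.02 and 0.09, and Gpr34, Cxcr4 and Mertk among the falls by -0.09, 0.35 and -0.30. Ccl2 rose by 5.06 after silica and by 4.53 without particle, from a level that silica alone had lowered by 0.83 (adjusted p = 0.000197). Of all 40 lists, the cell cycle list alone had a member that passed in this difference, Ccnd2. Estimates that did not pass leaned one way in some lists. The difference was positive for 24 of 26 antiviral genes (median 0.22), all 9 interferon-inducible GTPases (median 0.14) and all 16 genes of cholesterol synthesis (median 0.16), against 51.0% of all genes (median 0.00). Ifi47 is in both of the interferon lists. Other lists leaned the other way. Positive were 1 of 11 heat shock proteins (median -0.07), 1 of 8 MHC class II genes (-0.08), 2 of 15 stromal markers (-0.08) and none of 7 B cell markers (-0.10). Members of a list share the same arrays and are not independent replicates, so these counts are a description. A single gene, Rufy2, was called in opposite directions, -0.20 after silica and 0.23 without particle at low signals, and the difference did not pass (adjusted p = 0.241). It was named after its values were seen.

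**Figure D3:**
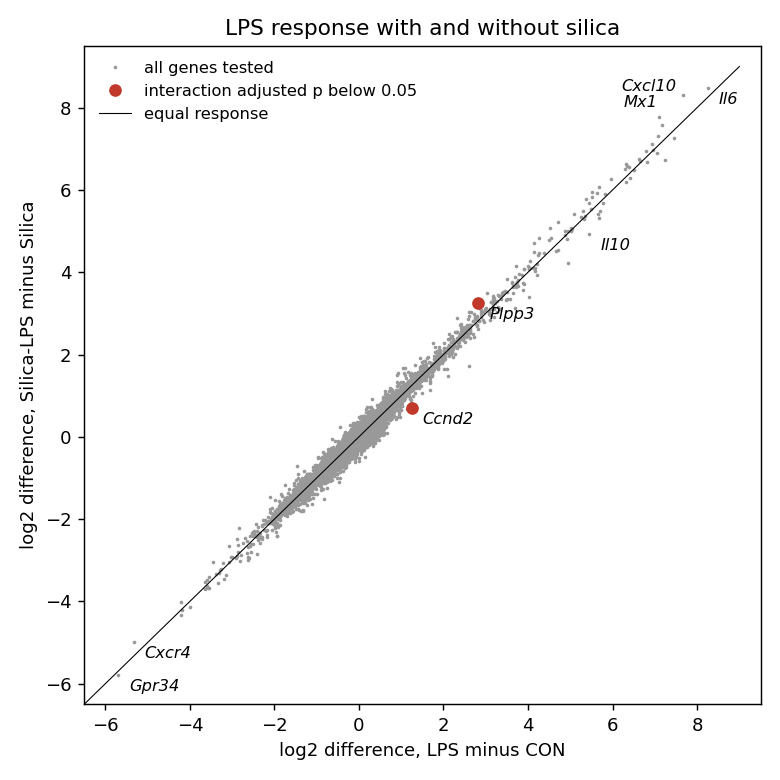
Log2 LPS response without particle, LPS minus CON (horizontal axis), against that after silica, Silica-LPS minus Silica (vertical axis), for 12393 genes (grey points), with the line of equal response. The points follow the line, and the 2 genes whose difference passed the test, Plpp3 and Ccnd2, are in red.

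The response after silica differed from the response after iron oxide for 717 genes (5.79%), 459 with a higher value after silica (3.7%) and 258 with a lower one (2.08%). By the estimates, called or not, 234 of them rose more after silica, 119 rose less, 78 fell more and 170 fell less. Another 116 had estimates of opposite sign, 44 of these called in both responses. The difference reached 2-fold for 32 genes. Across all genes both responses correlated at r = 0.968 with a slope of 0.956. For each of the 20 genes named next, the response without particle lay nearer to that after silica, a description only, since these genes were chosen for the difference.

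Il10 rose by 4.92 after silica but 3.45 after iron oxide (difference 1.47 ± 0.19, adjusted p = 0.00014). Dusp2, which switches off MAP kinases, rose by 5.05 and 3.58 and Pfkfb3 by 3.57 and 2.11. Tha1 (2.52 and 1.03), Saa1 (3.02 and 1.67), Bst1 (2.15 and 0.85), the sterol hydroxylase Ch25h (6.55 and 5.27) and Gadd45a (1.70 and 0.54) also rose more after silica. Bex1 did not pass after silica (-0.50) and fell by 1.73 after iron oxide, and Rassf2 fell by 1.56 and 2.69. In the other direction, Cxcl1 rose by 7.58 against 9.03 after iron oxide (difference -1.45 ± 0.18, adjusted p = 9.52e-05) and Cxcl2 by 5.22 against 6.39, as did Il1b, by 6.76 against 7.98. Slc40a1 fell by 3.52 after silica and by 1.82 after iron oxide, and Tent5c by 2.06 and 0.76. Rabgap1l (-0.74 and 1.21) and Ahr, the aryl hydrocarbon receptor (-0.45 and 1.06), fell after silica and rose after iron oxide, with 1 further probe set of each not called after silica. The stress kinase Plk2 (0.04 and 1.88), the cycle inhibitor Cdkn2b (0.10 and 1.82) and Phlda1 (0.09 and 1.25) did not pass after silica and rose after iron oxide. Over all genes 3.7% had a higher and 2.08% a lower response after silica than after iron oxide. The 8 lists with 4 or more members called one way were the antiviral list with none higher and 6 lower of 26, the NRF2 list with 2 and 4 of 17, the CC chemokines with 5 and 1 of 12, the clock list with 5 and 0 of 16, the inflammatory cytokines with 4 and 1 of 19, the MAP kinase phosphatases and mRNA decay proteins with 4 and 1 of 9, the genes for clearance of dying cells and Fc receptors with 4 and 1 of 14, and the AP-1, ATF, EGR and C/EBP factors with 4 and 2 of 17.

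**Figure D4:**
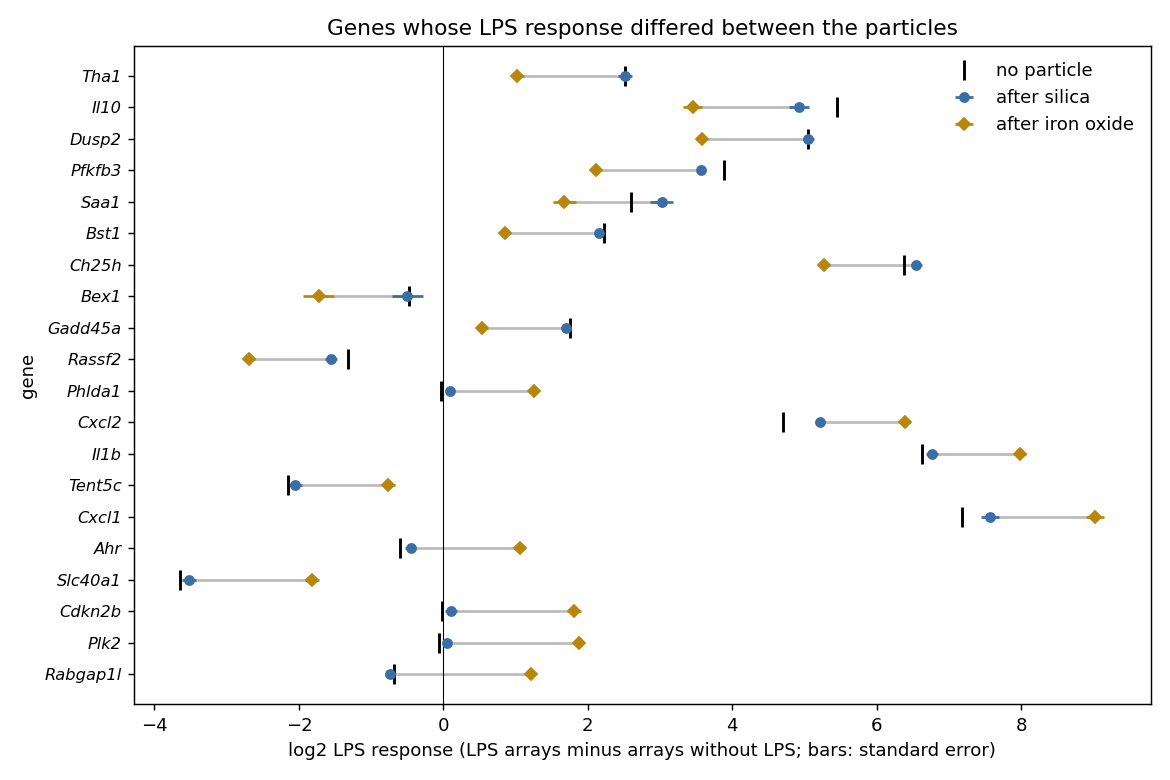
Log2 LPS response (horizontal axis) of the 20 genes with the largest difference between the particles, after silica (blue circles), after iron oxide (gold diamonds) and without particle (black ticks), with bars for the standard error of the fit. Silica and no particle lie close together for most genes, while Il10 and Slc40a1 among others stand apart after iron oxide.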

How the data were processed

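For each probe set of an Affymetrix array the deposited table gives a log2 signal, made by RMA per the submitters' processing notes. Its software is not given in the sources used here. Counts and detection calls are absent, the precision is limited by the array number, and differences of very dim or very bright probe sets are likely too small. Of 22690 probe sets 64 were controls, and of the remaining 22626 the platform annotation gave 1 symbol for 20380, several for 691 and none for 1555. For 20351, symbols were updated through gene identifiers. The probe set with the highest mean over all 18 arrays stood for each of 12393 genes, 4956 of which had several. In R 4.3.3 with limma 3.58.1, lmFit fitted 1 mean per group to all 18 arrays, contrasts.fit formed Silica-LPS minus Silica and its differences from LPS minus CON and from SPIO-LPS minus SPIO, and eBayes gave p-values adjusted by Benjamini and Hochberg within a contrast and called below 0.05.

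The 40 gene lists and 9 marker lists were written from general knowledge. The comparison, the lists, the tests and the alternatives were chosen with earlier results of these data known, so they are no independent support. Named genes were the called genes with the 15 largest rises and 15 largest falls, provided that arrays of both groups did not overlap, per list up to 4 called genes of largest change, up to 2 called against the list's majority, members left uncalled where these numbered 5 or fewer, up to 10 each way for each difference between responses, and fixed genes of the LPS response. Rufy2, Aldoa, Tpi1, Zfp36, Dusp6, Cxcl5, Cxcl16 and the gene families of the closing section were added after their values were seen. Promoter windows are from RefSeq on GRCm38.p6. The interferon element and the E-box were searched by their letters, and the NF-kB motif by its consensus.

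The pairing check correlated the deviations from the group means of Silica and Silica-LPS arrays with the same number, at 0.18, 0.0023 and 0.10 for numbers 1, 2 and 3. These values are low and do not settle whether the arrays are paired. They were treated as unpaired, with a replicate block as an alternative. The alternatives were a replicate block, a variance trend with robust prior, fitting the compared groups alone, dropping the dimmest 33.3% of genes, testing each probe set separately, averaging the probe sets per gene, cyclic loess, array weights, and dropping each array. In simulated data 67, 67 and 66 of 12393 genes were changed by 0.25, 0.5 and 1. For Silica-LPS against Silica, 35.8%, 82.1% and 98.5% of these were recovered, with 5 false calls. For the interaction with LPS the shares were 19.4%, 68.7% and 92.4%, with 11 false calls. The adjusted threshold depends on how many genes change. In the data 57.3% and 0.0161% of genes were called in these comparisons, so the simulated shares need not carry over. Figures were drawn with Python 3.11.15 and matplotlib 3.10.9.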

Additional observations from a re-analysis of the deposited data

Results flagged for a closer look

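The LPS response after silica differed from that without particle for Plpp3, by 0.44, and for Ccnd2, by -0.55, both by limma's test of the difference itself. Against the response after iron oxide it differed for 717 genes by the same test. The largest positive differences, silica minus iron oxide, were those of Tha1 (1.49), Il10 (1.47), Dusp2 (1.47), Pfkfb3 (1.47), Saa1 (1.35), Bst1 (1.30), Ch25h (1.28), Bex1 (1.23), Gadd45a (1.16) and Rassf2 (1.13). The largest negative differences were those of Rabgap1l (-1.95), Plk2 (-1.84), Cdkn2b (-1.71), Slc40a1 (-1.70), Ahr (-1.51), Cxcl1 (-1.45), Tent5c (-1.29), Il1b (-1.22), Cxcl2 (-1.16) and Phlda1 (-1.16).

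Probe sets outside the gene tests answered LPS as well. Of 691 with several gene symbols, 130 were called higher and 287 lower in Silica-LPS than in Silica, or 18.8% and 41.5% against 21.5% and 35.8% of all genes tested, and differences ran from -3.79 to 6.29. Of 1555 without a symbol, 279 were called higher and 302 lower, or 17.9% and 19.4%, and differences ran from -3.44 to 5.30. They are not named here.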

How the results depend on the processing

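The counts of genes changed by LPS after silica stayed within 1.5 times of those reported under the alternatives run, except that testing every probe set separately, which tests more features, gave 4525 higher, 6674 lower and 1117 at least 2-fold higher. Leaving out each array in turn gave 2379 to 2590 genes higher, 4190 to 4352 lower, 672 to 692 at least 2-fold higher and 698 to 775 at least 2-fold lower. Of 219 called genes named in the text none changed sign, and calls were lost under some setting for Rufy2, Rps6, Aldoa, Mvd, Nfatc1, Pkm, Pycard and Tpi1. Of 27 named genes that did not pass, 19 were called under some setting. All 19 inflammatory cytokines, for example, were called higher under cyclic loess and with the mean of probe sets. Signs of uncalled genes turned for Ciita (0.011), Cs (0.11), Dusp10 (0.012) and Vegfa (0.19) with the mean of probe sets and for Ccr1 (0.11), Cs (0.095), Dusp10 (0.030), Pf4 (0.078) and Vegfa (0.20) under cyclic loess.

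The difference from the response without particle depended on the setting. The counts of genes with a higher and a lower response after silica, 1 and 1 as reported, were 0 and 0 with the replicate block, 0 and 0 with the compared groups alone, 0 and 0 over every probe set, 0 and 1 with the mean of probe sets, 1 and 2 under cyclic loess, 1 and 2 with array weights, 3 and 2 without the dimmest genes, 27 and 13 with a variance trend and robust prior, and 0 to 1 and 0 to 1 on leaving out an array. The calls of Ccnd2 and Plpp3 were each kept under 5 of 19 settings, with adjusted p from 0.000178 to 0.212 and from 0.00214 to 0.212, while the differences stayed between -0.59 and -0.50 and between 0.38 and 0.48. The cause was not tested. Leaving out an array ended the call of Ccnd2 for each array of the 4 groups, and that of Plpp3 for each but Silica 1. The counts against iron oxide ran from 349 to 469 higher and from 213 to 256 lower on leaving out an array. The replicate block changed no other count by more than 1.5 times (2643 genes higher and 4424 lower by LPS after silica, 433 and 246 against iron oxide). Silica arrays 1 and 3 deviated most like the Silica-LPS array of the same number (0.18 and 0.10). Silica array 2 deviated most like Silica-LPS array 3 (0.10, against 0.0023 for its own number). These weak correlations do not settle whether arrays of the same number are paired. Probe sets of 1 gene could differ: of 3324 called genes with several, 197 had 1 or more called in the opposite direction. Signals carry no detection calls, so depth over background cannot be stated per gene.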

Other observations

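Families of genes taken by the start of their symbol, chosen after the values had been seen, are given as a description of the LPS response after silica, beside 21.5% of all genes higher and 35.8% lower. Of 74 mitochondrial ribosomal proteins (Mrp), which translate the subunits encoded in mitochondrial DNA, 49 were lower and 4 higher (median -0.27). Of 42 genes starting with Eif, most of them translation initiation factors, 29 were lower and 9 higher (median -0.23), and Eif2ak2, the kinase that halts translation on sensing viral RNA, rose by 2.72 ± 0.11. Of 43 proteasome genes (Psm) 17 were higher and 10 lower (median 0.07), with the immunoproteasome subunits Psmb9, Psmb10 and Psmb8 at the top. Of 10 genes starting with Parp 6 were higher and 4 lower (median 0.83), led by Parp14 (3.88 ± 0.052), Parp9 and Parp12, while Parp1, which repairs DNA, was the lowest (-1.25).

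Of 39 Trim genes 9 were higher and 15 lower (median -0.00), shares near those of all genes. At least 2-fold, 8 were higher, a larger share than the 5.48% of all genes, and 1 was lower, against 5.95%. Of 262 genes for solute carriers and others starting with Slc 56 were higher and 76 lower, with 17 and 16 of them 2-fold, from Slc7a11 (4.54) and the cationic amino acid carrier Slc7a2 (4.04) down to Slc40a1 (-3.52) and Slc46a3 (-3.68). Of 56 genes starting with Rab 17 were higher and 20 lower (median 0.02), with Rab20, a GTPase of phagosomes, the highest (2.31 ± 0.053). No member of any of these 7 families passed the test of a difference from the response without particle. Over all genes 2 of 12393 (0.0161%) passed it, so this count says nothing particular about the families.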
